A study of Mus musculus with 2 samples.

Results

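Follicular-like regulatory T (Treg) cells were examined in single-cell transcriptomes of mouse Treg cells, which carry the factor Foxp3 and hold immune responses in check. A cell was assigned to the class when the captured RNA molecules, counted as unique molecular identifiers (UMIs), of Pdcd1, Cxcr5, Sostdc1 and Tshz2 summed to 3 or more. The class held 396 of 7024 cells, 180 of 3634 in the control library and 216 of 3390 in the rescued library. All other cells served as the comparison within each library.

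The study asked whether Treg cells can last and work in severe autoimmune inflammation that is already under way, by restoring Foxp3 in mice that had lacked it. GFP+ cells were sorted from the spleen and lymph nodes of male C57BL/6 mice labelled as 7 months old, all of which had been given 4-hydroxytamoxifen once at postnatal day 14, and 3′ gene expression libraries were made by droplet capture. The control library pooled 5 mice of genotype Foxp3DTR-GFP/yCd4creERT2, in which Foxp3 is never blocked. The rescued library pooled 4 mice of genotype Foxp3LSL/yCd4creERT2, in which a stop cassette in Foxp3 is removed when the drug activates the recombinase. The recombinase is made in CD4-expressing cells in both groups, and it also switches on a tdTomato reporter, so that tdTomato marks cells that recombined and their descendants. Each group was 1 library of pooled animals, so there were no replicates, no test was run, and mouse, capture and genotype cannot be told apart. The intervals given are at 95% and cover counting error only.

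Follicular regulatory T cells are the Treg cells that enter B cell follicles and restrain germinal centre responses. They carry CXCR5, the receptor for the follicular chemokine CXCL13, and the inhibitory receptor PD-1, encoded by Pdcd1, both of which they share with follicular helper T cells. Their programme depends on the repressor BCL6, and they commonly carry little of the high-affinity interleukin-2 receptor chain. Sostdc1, a secreted antagonist of BMP and Wnt signals, and Tshz2, a zinc finger factor, are further genes that have been used to mark them.

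The class lay at the end of a continuous distribution, with no gap at the limit. Most cells had a sum of 0, namely 75.7% in the control and 65.3% in the rescued library. Just outside the limit, 160 control and 225 rescued cells had a sum of 2, and just inside it 76 and 87 cells had a sum of 3. Cells at exactly 3 made up 42.2% of the control and 40.3% of the rescued class, so that a large part of the class sat next to the limit. The highest sums were 40 in a control and 22 in a rescued cell.

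**Figure D1:**
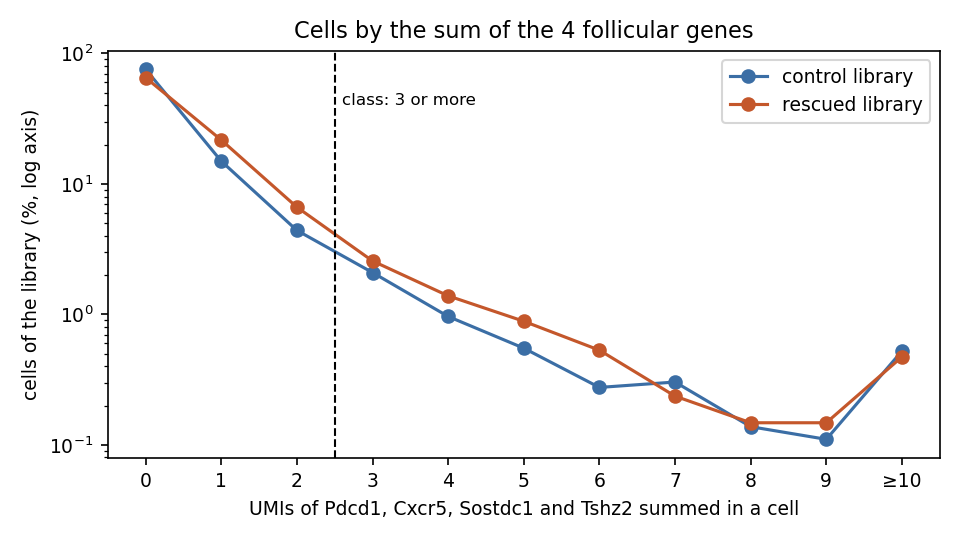
Share of the cells of each library (percent, log axis) at each summed UMI count of Pdcd1, Cxcr5, Sostdc1 and Tshz2, with the last point holding sums of 10 or more. Both curves fall steeply across the dashed limit, and in each library the class is the tail at 3 or more.

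Class cells were more deeply sampled than the others, which a rule on raw UMIs favours. Their median was 5703 UMIs against 3713.5 in the other control cells, and 5152.5 against 3793 in the rescued library. Of the class, 72.8% of control and 69.4% of rescued cells lay above the median depth of their library. The deepest cell of each library, with 46139 and 37190 UMIs, belonged to the class. Expression was therefore compared as CPM, the UMIs of a gene summed over cells and scaled to a common total, and the comparison of class with other cells was repeated against other cells matched on depth. Cell names shared a barcode between the libraries in 3 cases, and 1 class cell had such a barcode.

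The values that chose the class are given here as a description. Pdcd1 (chromosome 1, 94038305 to 94052553, GRCm38, minus strand, a protein-coding gene) contributed most of them, with 59.3% of the summed UMIs of the control and 52.1% of the rescued class. It was detected in 158 of 180 control and 176 of 216 rescued class cells, and its UMIs alone reached the limit in 64.4% and 47.2%. Cxcr5 (chromosome 9, 44511787 to 44561877, minus strand) was detected in 82 control and 108 rescued class cells, 45.6% and 50% of the class. Tshz2 (chromosome 2, 169633013 to 170071816, plus strand) was detected in 49 and 80 class cells. The class was thus mainly a group of Pdcd1-expressing Treg cells, and 36.1% of its control and 25.5% of its rescued members had Pdcd1 as the only one of the 4 genes.

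Sostdc1 (chromosome 12, 36314139 to 36318452, plus strand, protein coding) was rare and concentrated. Its 183 UMIs in the control library came from 20 cells, of which 19 were in the class. Its 182 UMIs in the rescued library came from 41 cells, of which 35 were in the class. The libraries thus held nearly the same number of Sostdc1 molecules, spread over fewer cells in the control, where 1 cell had 36 UMIs, than in the rescued library, where the highest had 12. Among class cells, 100 control and 142 rescued cells had at least 2 of the 4 genes, and all 4 were found in 4 and 3 cells.

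To see whether the 4 genes went together, cells were chosen by the sum of 3 genes and the level of the gene left out was measured. Sostdc1 stood out most. In the control library it reached 130 CPM in the 173 cells chosen without it and 2.10 CPM in the rest, and in the rescued library 75.7 CPM in 200 cells and 5.57 CPM in the rest. Its 153 control UMIs in chosen cells came from 12 of the 173, and its 103 rescued UMIs from 19 of the 200. Most chosen cells thus had no Sostdc1. The log2 ratios were 5.95 (5.38 to 6.57) and 3.76 (3.33 to 4.20). Tshz2 gave log2 ratios of 3.38 (2.89 to 3.86) in the control and 2.04 (1.61 to 2.46) in the rescued library.

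Pdcd1 was at 374 CPM in the 52 control cells chosen without it and 61.1 CPM in the rest, and at 160 and 63.5 CPM in the rescued library with 78 chosen cells. Cxcr5 was the weakest of the 4, at 61.7 against 31.2 CPM in the control and 65.3 against 49.5 CPM in the rescued library. Its log2 ratio was 0.99 (0.57 to 1.38) in the control, and in the rescued library the interval of 0.40 (-0.0069 to 0.78) included 0. For each of the 4 genes the rescued ratio was the smaller one.

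**Figure D2:**
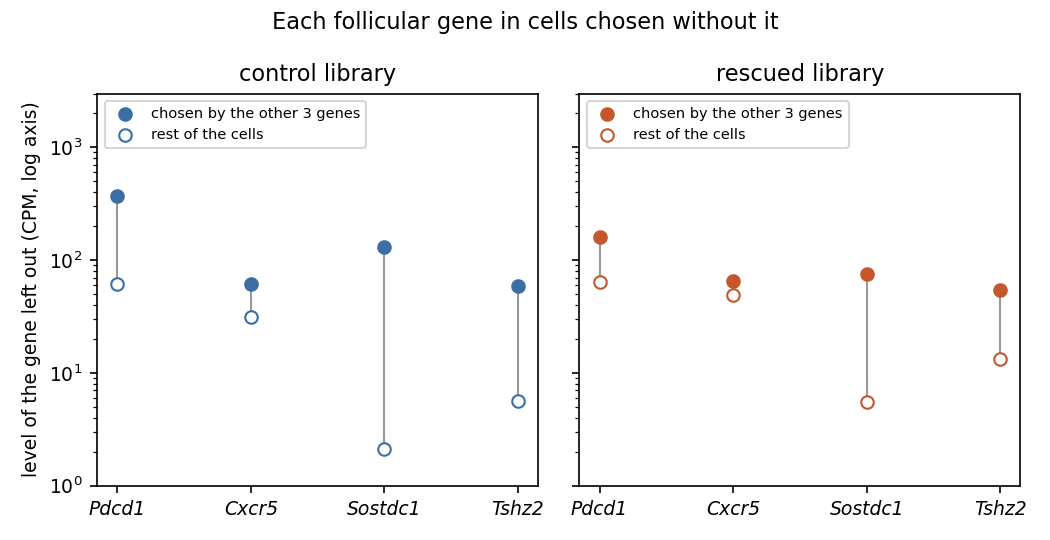
Level of each follicular gene (CPM, log axis) in cells chosen by a sum of 3 or more UMIs of the other 3 genes (filled points) and in all other cells (open points), in each library. The filled point is the higher one for every gene, with the widest gap for Sostdc1 and the narrowest for Cxcr5.

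Class cells also lay near each other when the 4 genes were left out. Among the 15 nearest neighbours of a class cell in a space of 30 principal components over 2000 variable genes, 29.9% were class cells in the control and 20.7% in the rescued library. Around the other cells the shares were 4.60% and 6.07%, and around other cells of like depth 7.04% and 7.65%. With every cell thinned to 2000 UMIs, the class shares were 18.7% and 13.6%, against 4.72% and 5.13% around depth-matched other cells. Isolated members existed too, since 16 control and 22 rescued class cells had no class cell among their neighbours. These shares describe the libraries, because the same cells supplied the rule and the neighbours.

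Gene levels in the class were set beside those of the other cells as a ratio of CPM in each library apart. Of 7330 genes with at least 200 UMIs in each library, 7.79% were at least 1.5-fold higher in the control class and 3.08% in the rescued class, and 4.84% and 3.34% were at least 1.5-fold lower. In both libraries at once 1.99% were higher and 1.36% lower. The median log2 ratio over all these genes was 0.045 in the control and 0.0090 in the rescued library. Since the rule was applied to the same cells, the counts below are descriptions.

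Several transcription factors of follicular T cells were higher in the class. Of 16 listed factors 13 passed the UMI minimum, and 6 of them, Bcl6, Tox, Tox2, Batf, Egr2 and Nfatc1, were at least 1.5-fold higher in both libraries. The median log2 ratio of the 13 was 1.03 in the control and 0.67 in the rescued library. Bcl6 (chromosome 16, 23965052 to 23988852, minus strand), the repressor on which follicular T cells depend, was at 54.6 CPM in the class and 19.4 CPM in the other control cells, and 25.3 and 12.7 CPM in the rescued library. Its log2 ratio was 1.49 (1.08 to 1.89) in the control and 1.00 (0.44 to 1.52) in the rescued library, and 1.82 in the control and 1.01 in the rescued library against depth-matched cells. Even so, Bcl6 gave only 66 and 36 UMIs in the whole class, so that most class cells showed none.

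Tox2, a high-mobility-group factor that acts with BCL6 in follicular helper cells, was at 77.0 CPM in the class and 18.8 CPM in the other control cells, and 88.5 and 38.7 CPM in the rescued library. The log2 ratio was 2.03 (1.68 to 2.38) in the control and 1.19 (0.90 to 1.48) in the rescued library. Its relative Tox had log2 ratios of 1.25 and 0.67. Batf, an AP-1 factor needed for follicular helper cells, had ratios of 1.44 and 1.01, and Maf, which drives CXCR5 and interleukin-21, 1.05 and 0.50. Egr2 and Nfatc1, both activated by signals from the T cell receptor, had ratios of 1.501 and 1.64 and of 1.03 and 0.91.

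Among members of the list that hold T cells in a resting or memory-like state, Lef1 and Bach2 were lower in the control class. Lef1 had a log2 ratio of -0.82 in control and -0.14 in rescued cells, and Bach2 of -0.66 in control and -0.058 in rescued cells. Tcf7, encoding TCF1, was at -0.14 in control and 0.49 in rescued cells, and Id3, an inhibitor of E proteins, at -0.13 in control and 0.43 in rescued cells. Against depth-matched control cells Tcf7 was at -0.16 and Id3 at 0.060. In the rescued library these 4 genes thus lay near or above the other cells. Irf4 had a ratio of 0.56 in control and 1.21 in rescued cells, but in the control it was -0.049 against depth-matched cells. Zfp831 had ratios of 0.43 and 0.23.

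The other 3 factors, below the UMI minimum, had a larger part of their UMIs in the class than the 7.82% of all control and 9.16% of all rescued UMIs that the class held. Cebpa, a factor best known from myeloid cells, had 56 UMIs in the class and 66 in the other cells of the control library, and 47 and 114 of the rescued library. Ascl2, a factor that induces CXCR5, had 14 of 35 UMIs in control and 6 of 22 in rescued cells inside the class. Pou2af1, a coactivator shared with B cells, had 13 of 32 UMIs in control and 6 of 14 in rescued cells inside it.

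Some secreted factors and decoy receptors gave steep ratios. Il1r2 (chromosome 1, 40074079 to 40125231, plus strand), the decoy receptor that captures interleukin-1, was at 116 CPM in the class and 15.5 CPM in the other control cells, and 157 and 34.1 CPM in the rescued library. Its log2 ratio was 2.90 (2.58 to 3.21) in the control and 2.21 (1.97 to 2.44) in the rescued library. Against depth-matched cells it was 1.12 in the control and 1.82 in the rescued library, so the control value in particular depended on which cells stood opposite the class. Il1rn, the interleukin-1 receptor antagonist, was found at 8 of 13 UMIs in control and 4 of 9 in rescued cells inside the class.

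The follicular cytokines were sparse and concentrated. Il4, which supports germinal centre B cells, had 17 of 34 control UMIs in 10 class cells and 14 of 31 rescued UMIs in 8 class cells, or 50% (32.4 to 67.6) and 45.2% (27.3 to 64.0) by the exact binomial method. Il21, the helper cytokine of germinal centres, had 6 of 14 UMIs in control and 6 of 7 in rescued cells in the class. Foxp3 was detected in 2 of the 10 control and 5 of the 8 rescued class cells with Il4. Il10 had 10 of 54 UMIs in control and 31 of 238 in rescued cells in the class.

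Nrn1, encoding the small glycoprotein neuritin that follicular regulatory cells release, was at 185 CPM in the class and 56.2 CPM in the other control cells, and 219 and 89.2 CPM in the rescued library, with log2 ratios of 1.72 and 1.30. Angptl2, a secreted angiopoietin-like protein, had 31.5% (23.0 to 41.0) of its control UMIs and 29.9% (22.5 to 38.0) of its rescued UMIs in the class. Matn2, a matrix protein, had 32 UMIs in the class and 91 in the other cells of the control library, and 32 and 186 of the rescued library. Fgl2, a soluble suppressor protein, went apart between the libraries, with a log2 ratio of 0.28 in control and -0.53 in rescued cells. Of the 12 genes of the list 3 passed the UMI minimum, and 2 of these, Nrn1 and Il1r2, were at least 1.5-fold higher in both libraries. Over all tested genes this share was 1.99%. Spp1 had 2 and 0 class UMIs, Ppp1r14a had 0 and Gng4 was not analysed here.

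Surface and signalling molecules shifted less. Of 21 genes 18 passed the minimum, and 2, Cd200 and Lag3, were at least 1.5-fold higher in both libraries, against 1.99% of all tested genes. The list median was 0.24 in the control and 0.14 in the rescued library. Cd200, a surface ligand typical of follicular T cells, was at 96.0 CPM in the class and 60.5 CPM in the other control cells, and 86.4 and 50.8 CPM in the rescued library. Its log2 ratios were 0.67 and 0.77, and 0.36 in the control against depth-matched cells, below the 1.5-fold limit. Lag3, an inhibitory receptor for MHC class II, had log2 ratios of 2.02 in control and 0.91 in rescued cells. Sh2d1a, encoding the adaptor SAP through which T cells hold on to B cells, had ratios of 0.92 and 0.20, and Icos, the costimulatory receptor needed for follicular entry, 0.62 and 0.19. These last genes, together with Gpm6b at 1.33 and 0.40, were at least 1.5-fold higher in the control library alone. Against depth-matched cells control Icos was at 0.41, below that limit. Whether the libraries differ in this was not tested.

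Btla, an inhibitory receptor, had log2 ratios of 0.54 and 0.48, and Izumo1r, encoding folate receptor 4, of 0.47 and 0.23. The SLAM family members Slamf6, Slamf1, Cd84 and Ly9 lay close to the other cells, between -0.065 and 0.24 in both libraries. So did P2rx7, Il6st, Il21r and Dennd2d, between -0.084 and 0.16. Il6ra, the interleukin-6 receptor chain, was at -0.65 in control and -0.21 in rescued cells, Cd40lg at 0.52 and -0.054, and Rgs1, a regulator of chemokine receptor signalling, at -0.38 and -0.85. Below the minimum, the inhibitory receptor Tigit had 15 and 22 class UMIs and log2 ratios of 2.18 and 0.73, Cd160 50 and 37 UMIs and ratios of 2.10 and 1.09, and S1pr2 17 and 13 UMIs and ratios of 0.79 and -0.42.

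Genes that let T cells leave and recirculate were lower. Of 11 listed genes, all above the UMI minimum, 4 were at least 1.5-fold lower in both libraries: Klf2, S1pr1, Ccr7 and Rasgrp2. Over all tested genes this share was 1.36%. Klf2 (chromosome 8, 72319033 to 72321656, plus strand), the factor that drives exit receptors and that follicular T cells shut down, was at 237 CPM in the class and 897 CPM in the other control cells, and 195 and 419 CPM in the rescued library. Its log2 ratio was -1.92 (-2.09 to -1.75) in the control and -1.10 (-1.28 to -0.93) in the rescued library, and -1.54 in the control and -1.09 in the rescued library against depth-matched cells. S1pr1, the receptor by which T cells follow sphingosine-1-phosphate out of lymphoid tissue, was at 69.5 CPM in the class and 193 CPM in the other control cells, and 62.5 and 95.9 CPM in the rescued library. Ccr7, which keeps cells in the T cell zone, had log2 ratios of -1.22 and -0.69, and Rasgrp2, an activator of integrins, of -1.39 and -0.88.

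Selplg, the selectin ligand PSGL-1, had ratios of -0.98 and -0.55, and the integrin chain Itgb7 of -0.53 and -0.34. Other members of the list were not lower. Cxcr4, which guides cells to the dark zone of germinal centres, had ratios of 0.39 and 0.65, Gpr183, a receptor for oxysterols at the follicle border, 0.22 and 0.43, Ccr6 0.41 and 0.15, Cxcr3 0.53 and 0.21, and Itgb2 0.15 and 0.19. The list median was -0.53 in the control and -0.34 in the rescued library.

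The class carried the marks of Treg cells. Foxp3 was detected in 32.2% (25.5 to 39.6) of control class cells and 26.0% (24.5 to 27.5) of the other control cells, and in 70.8% (64.3 to 76.8) and 71.8% (70.2 to 73.4) of the rescued cells. With each cell thinned to 2000 UMIs, Foxp3 was in 15.2% of class and 14.2% of other control cells. In the rescued library these shares were 45.1% (38.3 to 52.0) and 54.3% (52.5 to 56.0). Per UMI its level was 72.0 CPM in the class and 81.7 CPM in the other control cells, and 420.2 and 473 CPM in the rescued library. The log2 ratio was -0.18 (-0.51 to 0.13) in the control and -0.17 (-0.29 to -0.050) in the rescued library. Ikzf2, encoding the Treg factor Helios, was detected in 97.2% of control and 99.1% of rescued class cells. In the other cells, which were less deeply sampled, the shares were 79.0% and 91.5%. Its level was 2048 CPM in the class and 1200.4 CPM in the other control cells, and 1946 and 1632 CPM in the rescued library.

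Il2ra, the high-affinity interleukin-2 receptor chain CD25, was lower in the class of both libraries, at 196 CPM in the class and 287 CPM in the other control cells, and 223 and 374 CPM in the rescued library. These levels gave a log2 ratio of -0.55 (-0.74 to -0.36) in the control and -0.74 (-0.91 to -0.58) in the rescued library. The costimulatory receptors Tnfrsf9 (4-1BB) and Tnfrsf4 (OX40) were the 2 of 15 identity genes at least 1.5-fold higher in both libraries, with ratios of 2.07 and 1.01 and of 1.06 and 0.73, the latter below that limit, at 0.48 and 0.54, against depth-matched cells. Over all tested genes 1.99% were that much higher in both libraries. Tnfrsf18 had ratios of 0.80 and 0.36, Nt5e, the ectoenzyme CD73, 0.89 and 0.49, and Prdm1, encoding the effector factor BLIMP-1, 1.01 and 0.100. Ctla4, Nrp1, Ikzf4, Il2rb and Capg lay between 0.048 and 0.50, and Lrrc32 and Entpd1 between -0.42 and -0.29.

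**Figure D3:**
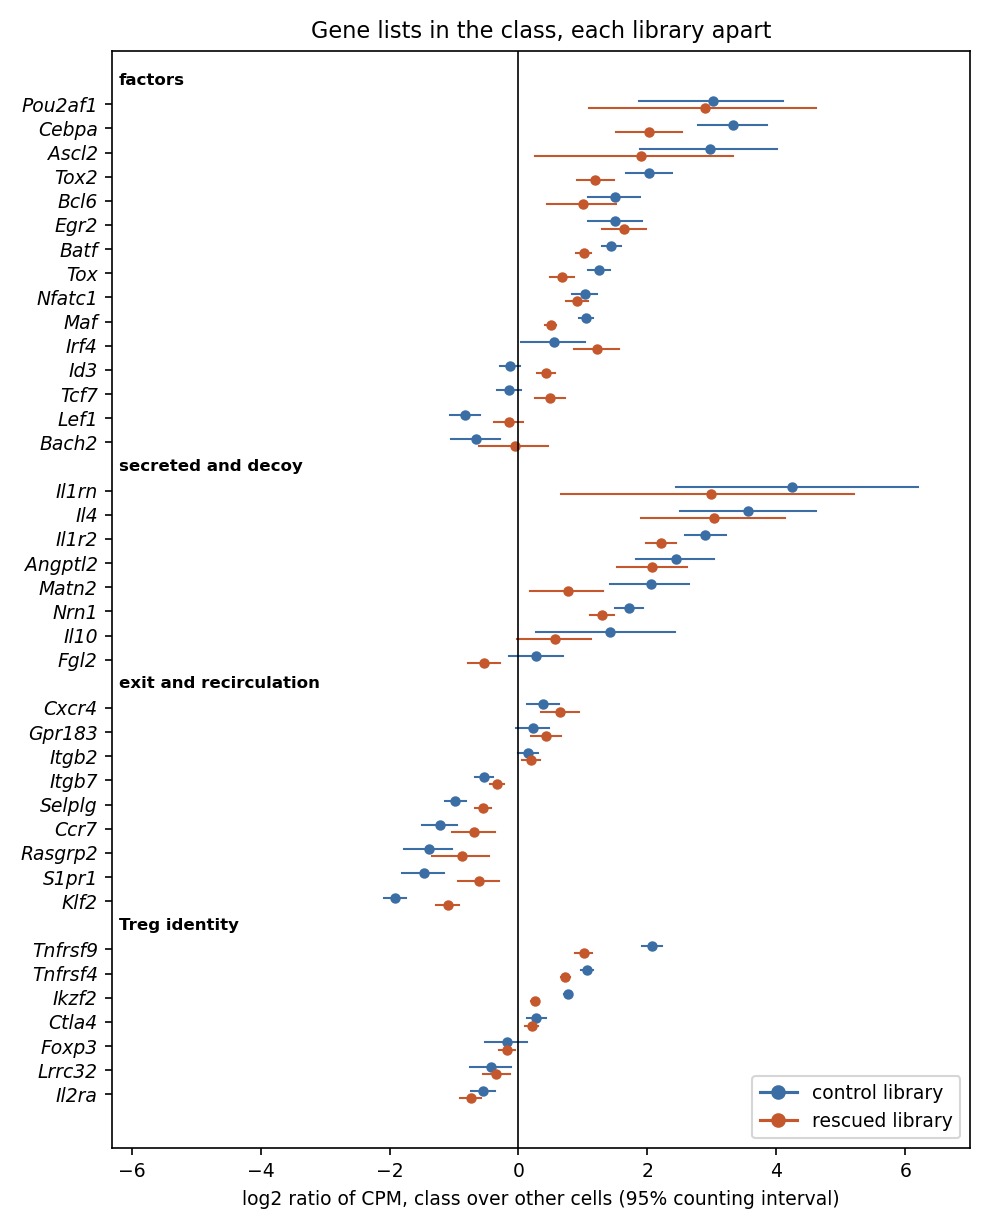
Log2 ratio of CPM, class over other cells, for genes of 4 lists in the control (blue) and rescued (orange) library, with lines for the 95% counting interval. Follicular factors and secreted genes lie mostly to the right of 0, Klf2, S1pr1, Rasgrp2 and Ccr7 to the left, and Foxp3 close to 0. Not every listed gene is plotted.

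The reporter was more often detected in the class. tdTomato UMIs were found in 86.7% (80.8 to 91.3) of control class cells and 61.7% (60.1 to 63.3) of the other control cells, and in 71.8% (65.3 to 77.7) and 54.8% (53.0 to 56.5) of the rescued cells. With each cell thinned to 2000 UMIs, and 2 control and 1 rescued class cell too shallow to enter, the shares were 59.0% against 44.7% and 57.2% against 42.2%. Per UMI the reporter was at 597 CPM in the class and 372 CPM in the other control cells, and 1015 and 628 CPM in the rescued library. The log2 ratios of 0.68 and 0.69 were thus nearly alike in the libraries. No cell type that should lack tdTomato was sorted, so the share that free RNA gives is not known, and the share of cells with a UMI is not read here as a share of recombined cells.

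Apart from the lists, the genes that led the class in both libraries were headed by Il1r2 and Rgs16, a brake on G protein signalling, the latter with log2 ratios of 2.53 and 1.91. Bhlhe40, a factor that limits interleukin-10, had ratios of 1.91 and 1.70. Sccpdh was at 1.91 and 1.69, Prelid2 at 1.85 and 1.61, 2310015A10Rik at 1.68 and 1.49, Marcksl1 at 1.86 and 1.49 and Stx11, a syntaxin of cytotoxic granules, at 2.32 and 1.40. Bcl2a1d, a survival gene with near-identical copies between which reads cannot be told apart, was at 2.46 and 1.505.

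A pair of these genes did not keep their direction under every alternative. Cxcl10, a chemokine induced by interferon, was at 1.55 and 1.49, but 58 of its 220 rescued class UMIs came from 1 cell, and the control ratio was 0.24 against depth-matched cells and -0.30 with a limit of 4 UMIs. Actg2, a smooth muscle actin, was at 1.53 and 1.49, and at -0.16 against depth-matched control cells. The other 10 of the 12 genes, Egr2 among them, kept their sign in both of those alternatives.

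The genes lowest in the class included marks of resting and gut-homing cells. Ly6c1, a surface protein of resting and central Treg cells whose copy Ly6c2 is close in sequence, had 17 UMIs in the class and 2079 in the other cells of the control library, and 3 and 397 of the rescued library. Igfbp4, typical of naive-like T cells, had 19 UMIs in the class and 1877 in the other cells of the control library, and 1 and 423 of the rescued library. That is a log2 ratio of -3.07 (-3.80 to -2.42) in the control and -5.41 (-10.72 to -2.93) in the rescued library. Ccr9, the gut-homing chemokine receptor, had ratios of -2.20 and -2.07, Enpp4 -2.05 and -1.14, Gpr146 -1.32 and -1.24, and Gata1, with 13 and 3 class UMIs, -1.26 (-2.19 to -0.47) in the control and -3.12 (-5.41 to -1.56) in the rescued library. The interferon-linked genes Ifit1bl1 and Gm4951 were at -1.73 and -1.14 and at -1.23 and -1.30.

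Levels differed along the whole sum of the 4 genes and not only at the limit. These levels were not matched on depth, which rose along the sum. Median depth went from 3662 UMIs at a sum of 0 to 6257 at 5 or more in the control. In the rescued library it went from 3701 to 5641.5 UMIs. Across sums of 0, 1, 2, 3 to 4, and 5 or more, Il1r2 was at 7.69, 15.9, 114, 91.0 and 148 CPM in the control and at 21.1, 49.2, 93.7, 119 and 214 CPM in the rescued library. Tox2 was at 12.6, 33.8, 54.6, 49.9 and 112 CPM and at 29.6, 55.8, 61.6, 70.7 and 115 CPM. Bcl6 was at 16.3, 29.3, 30.2, 32.3 and 83.5 CPM and at 11.4, 14.5, 17.7, 21.2 and 31.4 CPM, so that its control level lay highest in cells with 5 or more. Klf2 was at 1014, 588, 295, 293 and 165 CPM and at 486, 315, 181, 207 and 178 CPM, with most of the step already between sums of 0 and 2. Control cells just outside the limit, with a sum of 2, thus had Klf2 and Il1r2 near the levels of cells with 3 to 4.

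**Figure D4:**
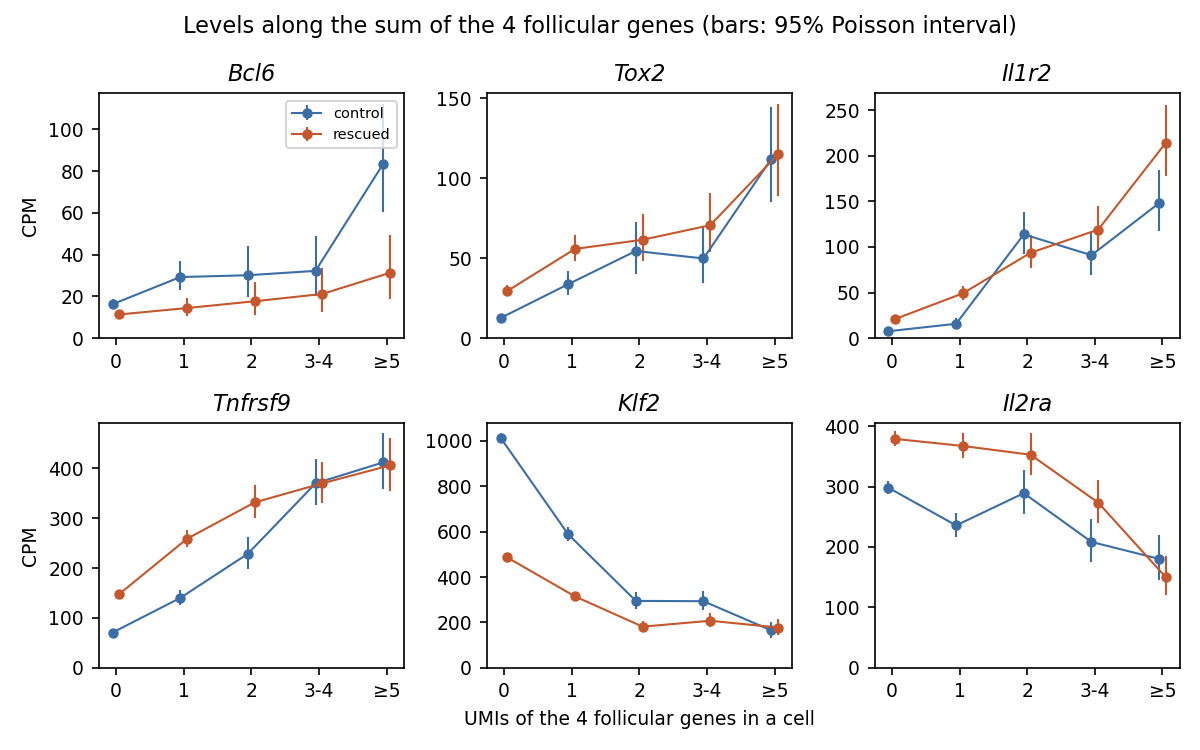
Level of 6 genes (CPM) in cells grouped by the summed UMIs of the 4 follicular genes, in the control (blue) and rescued (orange) library, with bars for the exact 95% Poisson interval. Bcl6, Tox2, Il1r2 and Tnfrsf9 are highest at 5 or more UMIs in both libraries, while Klf2 and Il2ra are highest at 0. The groups hold 2751, 543, 160, 111 and 69 control cells and 2213, 736, 225, 134 and 82 rescued cells. They were not matched on depth, which rises from left to right.

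Within the class, cells with Sostdc1 were set beside cells without it that had at least 3 Pdcd1 UMIs and beside the remaining members. They numbered 19, 105 and 56 in the control and 35, 94 and 87 in the rescued library. Bcl6 was at 122 and 56.9 CPM in the control and rescued Sostdc1 cells, 51.5 and 14.3 CPM in the Pdcd1 cells and 32.1 and 27.5 CPM in the remaining ones. Il1r2 was at 238 and 472 CPM, 115 and 119 CPM and 64.2 and 107 CPM in the same order. The Bcl6 levels of the Sostdc1 cells rested on 18 control UMIs in 9 cells, 6 of them from 1 cell, and 10 rescued UMIs in 9 cells. By these levels the Sostdc1 cells were the highest of the 3 groups in both genes. Relative to the cells outside the class their log2 ratio for Bcl6 was 2.66 (1.88 to 3.35) in the control and 2.17 (1.08 to 3.08) in the rescued library, and for Il1r2 3.94 (3.38 to 4.46) in the control and 3.79 (3.44 to 4.13) in the rescued library. Il4 was at 40.8 and 51.2 CPM, against 11.1 and 7.95 CPM in the Pdcd1 cells. The Sostdc1 cells held 6 of the 17 control and 9 of the 14 rescued class UMIs. These UMIs came from 4 control and 4 rescued cells. A single cell held 3 of the 6 control UMIs, and 1 held 6 of the 9 rescued UMIs. Il2ra was at 177 and 142 CPM, against 209 and 172 CPM in the Pdcd1 cells.

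Foxp3 in the Sostdc1 cells of the rescued library was at 233 CPM, a log2 ratio to the other cells of -1.02 (-1.500 to -0.58). In the control library the ratio was -0.42 (-1.55 to 0.51) on 9 UMIs. tdTomato in these cells was at 679.8 and 1770.1 CPM in control and rescued cells. Batf was at 503 and 1144 CPM. Nkg7, a gene of cytotoxic cells, had 0 UMIs in the control and 2 in the rescued Sostdc1 cells.

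Genes of recently stimulated cells did not all go one way between the Pdcd1 cells without Sostdc1 and the Sostdc1 cells. Tnfrsf9 was at 543 and 494 CPM in the Pdcd1 cells and at 204 and 461 CPM in the Sostdc1 cells. Penk, encoding the opioid precursor proenkephalin, was at 394 and 127 CPM in the Pdcd1 cells and 54.4 and 245 CPM in the Sostdc1 cells, in opposite order in the libraries, and 105 of the 316 control class UMIs came from 1 cell. Egr2 was at 59.8 and 81.1 CPM, against 68.0 and 131 CPM in the Sostdc1 cells. Of the 10 control Egr2 UMIs of the Sostdc1 cells, 6 came from 1 cell. Nr4a1, an immediate target of T cell receptor signals, was at 57.1 and 153 CPM, against 34.0 and 68.3 CPM in the Sostdc1 cells. In the Sostdc1 cells all 5 control Nr4a1 UMIs came from 1 cell, and 9 of the 12 rescued ones from 1 cell. The remaining members had 86, 65 and 31 UMIs of Cxcr5, Pdcd1 and Tshz2 in the control and 150, 87 and 66 in the rescued library. Cxcr5, a gene of the rule, was at 251 and 243 CPM in them. Ccr7 was at 161 and 85.7 CPM, against 71.0 and 31.8 CPM in the Pdcd1 cells.

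Genes of T cell receptor stimulation and the cell cycle were also counted over the whole class. Of 11 stimulation genes 8 passed the UMI minimum, and 4, Nr4a1, Egr1, Irf8 and Tnfrsf9, were at least 1.5-fold higher in both libraries. Over all tested genes this share was 1.99%, and Tnfrsf9 was also counted in the Treg identity list. Nr4a1 was at 51.3 CPM in the class and 20.9 CPM in the other control cells, and 100.5 and 23.1 CPM in the rescued library. Myc, in contrast, had log2 ratios of -0.73 and -0.44. Irf8 had ratios of 1.02 and 1.07, and in the control library -0.060 against depth-matched cells. Of 14 cell cycle genes 5 passed, with Mcm6 and Stmn1 at least 1.5-fold higher in both libraries, against the same 1.99% of all tested genes. The median ratios were 1.36 in the control and 0.54 in the rescued library. Against depth-matched cells neither gene kept this in both libraries, with Mcm6 at 0.57 and 0.38 and Stmn1 at 0.595 and -0.11, and the medians were 0.57 and 0.015. Much of the cycle signal came from few cells, since 1 control class cell held 27 of 46 Mki67 UMIs and 1 held 26 of 48 Top2a UMIs, and the control Stmn1 ratio of 1.97 was 0.52 without the highest cell.

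Markers of other cell types were counted beside these results. Immunoglobulin kappa, Igkc (chromosome 6, 70726435 to 70726966, plus strand), had the highest ratios of the 5 B cell genes above the UMI minimum. Its log2 ratio of class over other cells was 3.39 in the control and 1.22 in the rescued library. It had 112 UMIs in 19 control class cells, 10.6% of the class against 1.33% of the other cells, and 113 UMIs in 27 rescued class cells, 12.5% against 4.28%. In those Igkc-positive class cells Cd79a had 0 and 0 UMIs, Ms4a1 0 and 1, Pax5 1 and 0, and Ebf1 0 and 0. Other genes of B cells had some UMIs there, with Cd22 at 13.0 CPM in control and 30.6 CPM in rescued cells, against 9.48 and 3.97 CPM in class cells without Igkc. Pou2af1 was at 39.1 and 12.2 CPM, against 6.63 and 3.18 CPM, and H2-Aa at 19.6 and 0 CPM, against 0 and 4.76 CPM, each on 6 or fewer UMIs in the Igkc-positive cells. Ighm was at 1866 and 1664 CPM in the control and rescued Igkc-positive class cells, against 1194 and 1736 CPM in class cells without Igkc. Foxp3 had 8 and 87 UMIs in the Igkc-positive class cells. No more than 19 Igkc UMIs came from a single class cell.

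Over the B cell list, 4 of the 17 genes in the table were at 0 in the control class and 5 in the rescued class, and 5 passed the UMI minimum, of which Igkc and Cd74 were at least 1.5-fold higher in both libraries, Cd74 not so against depth-matched rescued cells, at 0.42. In the control library 4 of the 5 were at least 1.5-fold higher, against 7.79% of all tested genes, and in the rescued library 2, against 3.08%. The list median was 1.34 in the control and 0.14 in the rescued library, and 0.82 and 0.12 against depth-matched cells. The summed level was 1797 CPM in the class and 993 CPM in the other control cells, and 2462 and 2306 CPM in the rescued library. Most of it was Ighm, which was also found throughout the other cells and had log2 ratios of 0.71 in the control and -0.095 in the rescued library. The myeloid list summed to 175 CPM in the class and 169 CPM in the other control cells, and 241 and 199.5 CPM in the rescued library, with 5 of 8 genes at 0 in each class. The list for CD8 T or NK cells summed to 175 CPM in the class and 59.6 CPM in the other control cells, and 69.6 and 44.2 CPM in the rescued library, with 3 of 7 genes at 0 and Nkg7 at 2.16 and 1.23, though the rescued Nkg7 ratio was 0.095 without its highest cell. Red blood cell genes summed to 1.66 CPM in the class and 0.140 CPM in the other control cells, and 2.11 and 1.84 CPM in the rescued library. The part of these genes in the results above was not tested.

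The class made up 4.95% (4.27 to 5.71) of control cells and 6.37% (5.57 to 7.25) of rescued cells by the exact binomial method. The order of the libraries was not the same at every depth. At 2000 UMIs in every cell it held 1.49% and 1.996%, and at 1000 UMIs 0.605% (0.380 to 0.915) and 0.531% (0.315 to 0.838), in the opposite order with overlapping intervals. Of the genes of the rule, Sostdc1 had 183 and 182 UMIs and Pdcd1 1052 and 1038 UMIs in the libraries, while Cxcr5 had 510 and 784 and Tshz2 148 and 254. The rescued share was also the higher one when Cxcr5 was left out of the sum, at 3.80% and 4.40%, and when Tshz2 was, at 4.54% and 5.22%.

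Rescued class cells were then compared with control class cells, beside the same ratio in all other cells. Of 6644 genes with at least 50 UMIs over the class cells, 3.21% were at least 1.5-fold higher and 3.97% at least 1.5-fold lower in the rescued class. For the same genes in the other cells the shares were 3.7% and 1.41%. The median log2 ratio over all genes was -0.0071 in the class and 0.027 in the other cells. The class is small, and its counting error is larger than that of the other cells.

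Foxp3 had the largest ratio not resting on 1 cell. It was at 72.0 CPM in control and 420.2 CPM in rescued class cells, a log2 ratio of 2.55 (2.22 to 2.89), against 2.53 (2.44 to 2.63) in the other cells. The Foxp3 alleles differ between the libraries, so allele and rescue cannot be told apart in this value. Itgae, the integrin CD103 of effector Treg cells, had a ratio of 1.47 in the class and 2.09 in the other cells. Ly6a, encoding Sca-1, was at 1.51 against 1.09, Socs3, a feedback inhibitor of cytokine signals, at 1.501 against 0.56, Lilrb4a at 1.37 against 1.996, Cxcl10 at 1.34 against 1.39 and the thrombin receptor F2r at 1.28 against 0.87, each class value given first. Gzma was at 4.65 against 4.98, with 84 of its 89 rescued class UMIs in 1 cell.

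Among the genes lower in the rescued class, Themis, which tunes T cell receptor signals, had a ratio of -2.17 in the class and -1.35 in the other cells. The helicase Hells was at -1.88 against 0.16, the nucleolar methyltransferase Nop2 at -1.76 against -0.32, Fam210a at -1.45 against 0.25, Nkg7 at -1.52 against -0.60 and Spry1, an inhibitor of growth factor signals, at -1.36 against -0.78, class first. For a pair of them 1 control cell decided the size. The chemokine Ccl4 was at -3.45 against 0.90, with 68 of 74 control class UMIs in 1 cell and -1.82 without it, and Top2a was at -1.499 against 0.54 and -0.61 without its highest cell.

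Within the follicular lists the rescued and control classes differed in both directions. Of the 14 factors above the minimum 1 was at least 1.5-fold higher and 4 were lower in the rescued class, against 3.21% and 3.97% of all tested genes. The median log2 ratio was 0.0035, against 0.17 in the other cells. Bcl6 was at 54.6 CPM in control and 25.3 CPM in rescued class cells, with a ratio of -1.11 (-1.74 to -0.50) against -0.61 (-0.89 to -0.34) in the other cells. Bach2 was at -1.10 against -1.70, Tcf7 at -0.83 against -1.47 and Tox at -0.62 against -0.043, class first, and these with Bcl6 were the 4 lower factors. Irf4, at 0.89 against 0.23, was the higher one. Tox2 was at 0.20 against 1.04, Maf at 0.39 against 0.93 and Batf at 0.25 against 0.68. The surface list had medians of -0.15 in the class and 0.13 in the other cells, with Icos at 0.94 against 1.36, and the exit list 0.21 and -0.0063.

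For several genes the difference between the libraries was smaller in the class. Tnfrsf9 was at -0.014 in the class and 1.05 in the other cells. Epcam, an adhesion molecule, was at 0.46 in the class and 2.07 in the other cells, Igkc at -0.22 in the class and 1.94 in the other cells, Il1r2 at 0.44 in the class and 1.13 in the other cells, S1pr1 at -0.15 in the class and -1.01 in the other cells and Klf2 at -0.28 in the class and -1.10 in the other cells. Over the Treg identity list the median was 0.23 in the class and 0.72 in the other cells, with 5 and 9 of 15 genes at least 1.5-fold higher. Over all tested genes these shares were 3.21% in the class and 3.7% in the other cells. The cell cycle and stimulation lists did not go this way, with medians larger in size in the class. The cell cycle list had -0.75 in the class and 0.35 in the other cells, and the stimulation list 0.47 and 0.11. In the control class 1 cell held 27 of 46 Mki67 UMIs and 1 held 26 of 48 Top2a UMIs. Without the highest class cell of each gene, Mki67 was at 0.32, Stmn1 at 0.30 and Ccnb2 at 0.99 in the class, while Top2a stayed lower at -0.61. The gap between class and other cells was not tested for any of the genes or lists named here. tdTomato, in contrast, differed alike, at 0.77 in the class and 0.75 in the other cells.

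**Figure D5:**
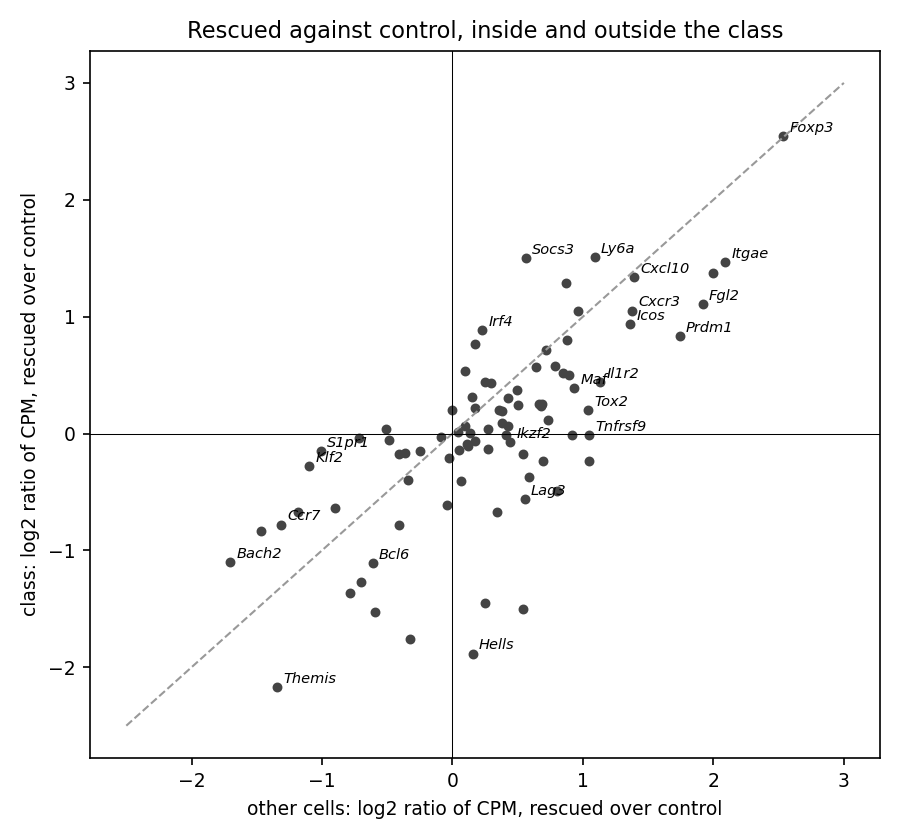
Log2 ratio of CPM, rescued over control, in the class (vertical axis) and in all other cells (horizontal axis) for 88 genes with at least 50 class UMIs that belong to the follicular or Treg lists or were named by rule, without the 4 genes of the rule, Ccl4 and Gzma. The dashed line marks equal ratios. Foxp3 lies on it at the upper right, and Tnfrsf9, Tox2 and Lag3 lie below it.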

How the data were processed

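Droplet libraries of sorted Treg cells, 1 from control and 1 from rescued mice, were analysed. The authors made the deposited counts, whole UMIs per cell and gene without normalization, with Cell Ranger 3.0 on mouse build mm10 (GRCm38), to which tdTomato had been added, and per the labels Seurat 3.1.5 was also used. They described removing cells under 1000 molecules and those above 5% mitochondrial transcripts, yet 6859 of the 7024 deposited cells exceed 5% over the 16098 genes in the table, which holds 0 ribosomal protein genes, so that limit was not applied again. A second table of normalized log values for 7906 genes was not used. There were 0 columns of sample values that went unused.

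Cells were assigned to libraries by the prefix of their names. The members, lists and comparisons were chosen with earlier results of these data known. UMIs were summed over cells and divided by the sum of all UMIs to give CPM. Ratios carry conditional exact intervals and shares exact binomial intervals, and the code was checked on simulated counts. The libraries held 15446201 and 15537656 UMIs, of which the class had 1208429 and 1422993. Counts of genes used 200 UMIs in each library (class against other cells) or 50 UMIs over the class cells (rescued against control), and a 1.5-fold limit.

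The genes named were the 12 highest and 8 lowest of the class against other cells, ranked by the smaller ratio of the libraries with the same direction in both, the 8 highest and 8 lowest of rescued against control, all genes of 5 lists (factors, surface, secreted, exit, Treg identity), tdTomato and the 4 genes of the rule. The rankings passed over mitochondrial and ribosomal protein genes and the receptor genes of B and T cells. Other genes named (stimulation, cell cycle, B cell and other marker lists, Penk, Epcam, Klrg1, S100a4) were chosen after their values were seen. The result of 1 set of state marks is not reported here. Depth matching weighted other cells to the class over 10 depth bins of each library. Doublets were not removed: Scrublet in scanpy 1.11.5 called almost none, so an alternative left out the 3.5% of cells with the highest scores, 127 control and 119 rescued cells, of which 12 and 14 were in the class. Gene coordinates are those of GENCODE M21. Other tools were numpy 2.4.6, scipy 1.17.1 and pandas 2.3.3. Alternatives changed the limit, the genes required, the depth, the scale and the UMI minimum.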

Additional observations from a re-analysis of the deposited data

Results flagged for a closer look

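Some genes lay on opposite sides of the comparison in the 2 libraries, a difference that was not tested. Set against the other cells, the log2 ratio of the class was 0.31 in the control and -0.32 in the rescued library for Itgae, 0.55 and -0.88 for Nop2, 0.94 and -0.76 for Fam210a, 0.71 and -0.095 for Ighm, and 0.28 and -0.13 for S100a4. The control S100a4 ratio was -0.077 without its highest class cell and -0.57 against depth-matched cells.

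Other genes differed in sign between the class and the other cells when the libraries were compared, again untested. The log2 ratio of rescued over control was -0.56 in the class and 0.55 in the other cells for Lag3, -0.18 and 0.54 for Sh2d1a, -0.67 and 0.34 for Cd160, -0.41 and 0.066 for Rgs1, -0.37 and 0.58 for Bcl2a1d, and -1.45 and 0.25 for Fam210a. Among effector genes it was -0.73 and 1.27 for Klrg1, -1.06 and 0.45 for Penk, and -3.45 and 0.90 for Ccl4. In the class Klrg1 turned to 1.10 with at least 2 of the 4 genes required and to 1.25 after thinning to 2000 UMIs, and Penk to 0.11 after thinning, and 68 of the 74 control class UMIs of Ccl4 came from 1 cell. Among cell cycle genes it was -0.76 and 1.36 for Mki67, -1.499 and 0.54 for Top2a, -0.73 and 0.40 for Tyms, and -0.43 and 0.16 for Pcna. Without its highest class cell Mki67 was at 0.32 in the class, which is the direction of the other cells. After thinning to 2000 UMIs the class ratio was 0.013 for Lag3 and 0.024 for Pcna.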

How the results depend on the processing

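No paired analysis was possible because there was only 1 library in each group. With 1 library per group no value has a replicate check, and the small UMI sums of the class limit what a ratio can show. Requiring 2 UMIs gave class shares of 9.36% of control and 13.0% of rescued cells, 4 UMIs 2.86% and 3.81%, at least 2 of the 4 genes 2.75% and 4.19%, the sum without Pdcd1 1.43% and 2.30%, without Cxcr5 3.80% and 4.40%, and without Tshz2 5.22% of rescued cells. Thinning gave 1.49% and 1.996% at 2000 UMIs and 0.605% and 0.531% at 1000.

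The number of genes at least 1.5-fold apart also moved. Class against other rescued cells had 133 higher and 131 lower with 2 UMIs, 450 lower with 4 UMIs and 370 lower by the mean of CPM per cell, and the control had 570 lower with at least 2 of the 4 genes. With a minimum of 50 UMIs the counts were 1118 and 710 in the control and 537 and 633 in the rescued library. Without the class cell highest in each gene, an alternative chosen after seeing the data, they were 580 lower in the control and 150 higher and 446 lower in the rescued library. Rescued against control class cells had 129 and 142 with 2 UMIs, 379 and 431 with 4 UMIs, 420 and 424 with at least 2 genes, 492 and 664 with a minimum of 20 UMIs, and 1568 and 1542 after thinning to 2000 UMIs, which left 53 and 67 class cells. The exit list median of the control was -0.71 with at least 2 genes. Between rescued and control class cells the median of the factors was 0.38 after thinning, and that of Treg identity 0.45 by the mean of CPM per cell.

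Reversed values were few. Against depth-matched cells they were -0.16 for Actg2, -0.049 for Irf4, -0.060 for Irf8 and -0.57 for S100a4 in the control, and -0.11 for Stmn1 in the rescued library. With 4 UMIs Cxcl10 was at -0.30 in the control and Nkg7 at -1.08 in the rescued library. With at least 2 genes Itgae was at -0.035, S100a4 at -0.83 and Klrg1 at -1.31 in the control, and Ctla4 at -0.048 in the rescued library. S100a4 was at -0.077 in the control without its highest cell. For rescued over control in the class, at least 2 genes gave Gzma -0.49, Mki67 0.51, Stmn1 0.38 and Klrg1 1.10, thinning gave P2rx7 -0.13, Lag3 0.013, Prdm1 -0.34, Irf8 -1.04, Pcna 0.024, Cd79b -0.34, Ighm -0.082, Penk 0.11 and Klrg1 1.25, and leaving out the highest cell gave Mki67 0.32 and Stmn1 0.30. The cause was not tested.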

Other observations

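The class was also placed among other Treg states by the summed UMIs of their marks, a description with no test. Marks of an Il1r2, Penk and Nr4a3 state had a log2 ratio of class over other cells of 2.58 (2.42 to 2.74) in the control and 1.60 (1.44 to 1.75) in the rescued library. In the control 316 of its 480 class UMIs were Penk, 105 of them from 1 cell, and Il1r2 alone went from 2.90 to 1.12 against depth-matched cells. Those of resting cells, Ly6c1 and Igfbp4 together, had -3.22 (-3.74 to -2.75) in the control and -4.37 (-6.25 to -3.01) in the rescued library. Areg, Klrg1 and Il1rl1, marks of tissue-repair Treg cells, had 1.37 (1.08 to 1.65) in the control and -0.12 (-0.39 to 0.14) in the rescued library, although control Klrg1 alone was at -1.31 with at least 2 of the 4 genes required, and Epcam had 1.55 (1.21 to 1.88) in the control and -0.050 (-0.30 to 0.19) in the rescued library. Cxcr3 and Tbx21, marks of type 1 Treg cells, had 0.51 (0.26 to 0.76) in the control and 0.23 (0.066 to 0.38) in the rescued library, and Isg15 and Ifit3, induced by interferon, -0.082 (-0.30 to 0.13) in the control and -0.12 (-0.31 to 0.064) in the rescued library.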
